A study of Mus musculus with 8 samples.

Results

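The cytosolic ribosomal protein genes encode the proteins of the ribosome that works in the cytoplasm. They were taken by symbol from the deposited table of counts per gene, as every row named Rpl or Rps with a number (and an optional a, l or x), Rplp0, Rplp1, Rplp2 or Rpsa. Of 55536 rows, 83 matched. The 78 with a mean of at least 1 CPM (a gene's count scaled to a common library total) over the 8 libraries are described, with 45 genes of the large subunit, 31 of the small subunit and 2 processed pseudogenes, Rpl32l and Rpl6l. Just inside the limit lay Rpl32l at a mean of 1.29 CPM and Rps10 at 2.19 CPM, and just outside it Rpl24 at 0.649 CPM. Also left out were Rpl3l, Rps4l, Rpl10l and Rpl39l. The symbols do not take in every gene of a ribosomal protein, Rps3a1, Fau and Rack1 for example.

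The study asked which genes depend on the transcription factor Klf4 in cultured pancreatic alpha cells, the cells that make glucagon. Cells of alphaTC6, a mouse alpha cell line labelled as wild type, were reverse transfected for 48 h with RNAiMax Lipofectamine and small interfering RNA (siRNA), which was either a pool that targets Klf4 or a scramble sequence. Poly(A) RNA was sequenced from 4 biological replicates of each treatment. Batch 1 held scramble libraries 1 and 2 and Klf4 siRNA libraries 1, 2 and 4, whereas batch 2 held scramble libraries 3 and 4 and Klf4 siRNA library 3. All libraries share the cell line, the genotype, the reagent and the time, so that no untransfected cells serve as a reference. What set the batches apart was not stated, and the extraction text in the labels speaks of islets, in conflict with the cell line named for each sample.

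Each ribosome carries, as a rule, a single copy of most of these proteins, so that their genes are transcribed at high and matched levels, and proteins made in excess over their partners are degraded. Their messages begin with a C followed by a run of pyrimidines, the 5′ terminal oligopyrimidine (TOP) sequence. Through it the kinase mTOR and the RNA-binding protein Larp1 regulate their translation. In endocrine cells such as alpha cells, ribosomes on the endoplasmic reticulum make the peptide hormones. Messages were measured here, and neither translation nor protein was.

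Libraries held 45954151 to 64185987 counts, and the difference in totals between treatments was within their spread (exact permutation test, two-sided p = 0.486, n = 4 and 4). Klf4 itself was at 39.2, 35.1, 46.3 and 46.8 CPM in scramble libraries 1 to 4 and 12.5, 11.5, 19.8 and 18.8 CPM in Klf4 siRNA libraries 1 to 4. The groups did not overlap, and Klf4 fell by 1.33 ± 0.17 (log2, SE; adjusted p = 0.00830, edgeR's quasi-likelihood test with batch in the model). With batch 1 alone the Klf4 change was -1.39 (adjusted p = 0.104, same tool), and without scramble library 1 it was -1.27 (adjusted p = 0.0524). Gcg, the glucagon gene and the defining marker of alpha cells, was at 1257, 1244, 8913 and 8833 CPM in scramble and 1065, 1074, 7640 and 1231 CPM in Klf4 siRNA libraries. It was lower after Klf4 siRNA by a log2 change of -0.18 ± 0.041 (SE; adjusted p = 0.00954, edgeR). The call of Gcg was lost without scramble library 1 (adjusted p = 0.0523, edgeR) or Klf4 siRNA library 3 (adjusted p = 0.0931). Between batches Gcg differed more, with batch 2 higher by 2.80 on the log2 scale. Of 8 listed alpha cell markers 7 were tested (Gc was too low). Of these, 3 were called lower, Gcg among them (42.9%, beside 6.81% of all tested genes), and 0 higher. The insulin genes Ins1 and Ins2 had 0 counts in all 8 libraries, which allows up to 0.0653 CPM in the shallowest library. The 6 listed beta cell markers summed to 3.19 to 4.00 CPM in scramble and 3.06 to 3.99 CPM in Klf4 siRNA libraries, most of it from Mafa. Summed markers of fibroblasts were at 18.7 to 21.6 CPM in scramble and 19.1 to 26.8 CPM in Klf4 siRNA libraries, and those of blood and vessel cells at 1.93 to 2.69 and 1.85 to 2.37 CPM.

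The start regions of members on which the comparisons turn were searched for a pyrimidine run like that which begins these messages. Most but not all of those shown held such a run. Each line gives 30 bases of the sense strand, 5′ to 3′, from the RefSeq promoter table (GRCm38.p6), centred on the run, or for Rplp0 on the annotated start. Capitals mark the longest run of each window, a C followed by at least 5 C or T and beginning within 20 bases of the annotated start. Relative to that start the marked runs began at positions from -19 (Rps15) to 12 (Rps13), so they are not shown to begin the messages. The first 4 members were called between treatments, and Rpl35 was lower in every Klf4 siRNA library. Rpl31, Rpl38, Rps15 and Rplp0 were called between batches, and Rplp0 is shown as a member with no run in this window. The batch-called members Rpl37a and Rpl41 had none either.
Rpl6, chr5:121204480-121204509, forward strand: tgatcttggtcaCCTCCCgtcattgcttat
Rps13, chr7:116334161-116334190, reverse strand: tgagtggcgtcaCTTCCTgtgcggcttgat
Rpl13a, chr7:45128722-45128751, reverse strand: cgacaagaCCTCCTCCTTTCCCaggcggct
Rps10, chr17:27635227-27635256, reverse strand: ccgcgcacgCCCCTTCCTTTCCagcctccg
Rpl31, chr1:39367824-39367853, forward strand: ctcgccacaCCTCTTCCTCCTCgcctcccc
Rpl38, chr11:114668569-114668598, forward strand: gaagcctcgttCTTTCCCCgttctcttcgg
Rps15, chr10:80292400-80292429, forward strand: ggtggaggcgggCCCTCCCggcagagctcg
Rplp0, chr5:115559452-115559481, forward strand: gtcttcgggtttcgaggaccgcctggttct
Rpl35, chr2:39005115-39005144, reverse strand: gccccgCCCTTTCCTCTTTCTCTCgaacca

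A promoter window of 250 bases before to 50 bases after the start was found for 57 of the 78 members and for 27025 genes in all. A pyrimidine run as defined above was present in 41 of the 57 members (71.9%) and in 36.0% of all genes. RefSeq starts do not always fall on the first base of the message, so a run absent from these letters says nothing of the message itself. Nor does a run found here show that the message begins with it. On either strand, CCACCC, the box bound by Klf4 and related factors, was present in 16 of 57 members (28.1%) and in 34.0% of all genes. Members with CCACCC had a median log2 change after Klf4 siRNA of 0.036, and those without it of 0.029. The letters CCGGAAG, the core bound by ETS factors, stood in 24 of 57 members (42.1%) against 9.93% of all genes. GGGCGG, the box bound by SP1, stood in 61.4% against 38.2%, and TATAAA in 12.3% against 15.7%. The reverse complement of GGGCGG differs from CCACCC in the third letter only, and the motifs can share bases in part.

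Members differed widely among themselves in level. Scaled by the annotated exon length, the 76 coding members had a median of 137 CPM per kb, with quartiles of 70.7 and 212. Rplp1, a protein of the stalk that recruits elongation factors, was highest on this scale at 672 CPM per kb on average and at 639 to 694 over the 8 libraries, above every other member in every library. It was followed by Rps29, a small zinc-binding protein of the small subunit, at 466 (range 445 to 511), by Rps15, a protein of the small subunit's head, at 462 (range 422 to 483), and by Rpl36 at 455 (range 419 to 482). The ranges of these 3 overlapped, so their order is within the spread between libraries. At the other end stood Rps10 at 0.947 CPM per kb, and the pseudogenes Rpl32l at 3.24 and Rpl6l at 4.86. The lowest coding members above Rps10 were Rpl13a at 13.2 and Rps15a at 19.3. Exon length sums all annotated isoforms. On the length of the longest coding transcript the order of the coding members was alike as a whole (Spearman's rho 0.884 across 76 genes of the same libraries, a description) but not at the top. On that scale Rps29 at 829, Rpl41 at 817 and Rps28 at 714 CPM per kb stood above Rplp1 at 672, and Rps15 and Rpl36 ranked 10 and 16.

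**Figure D1:**
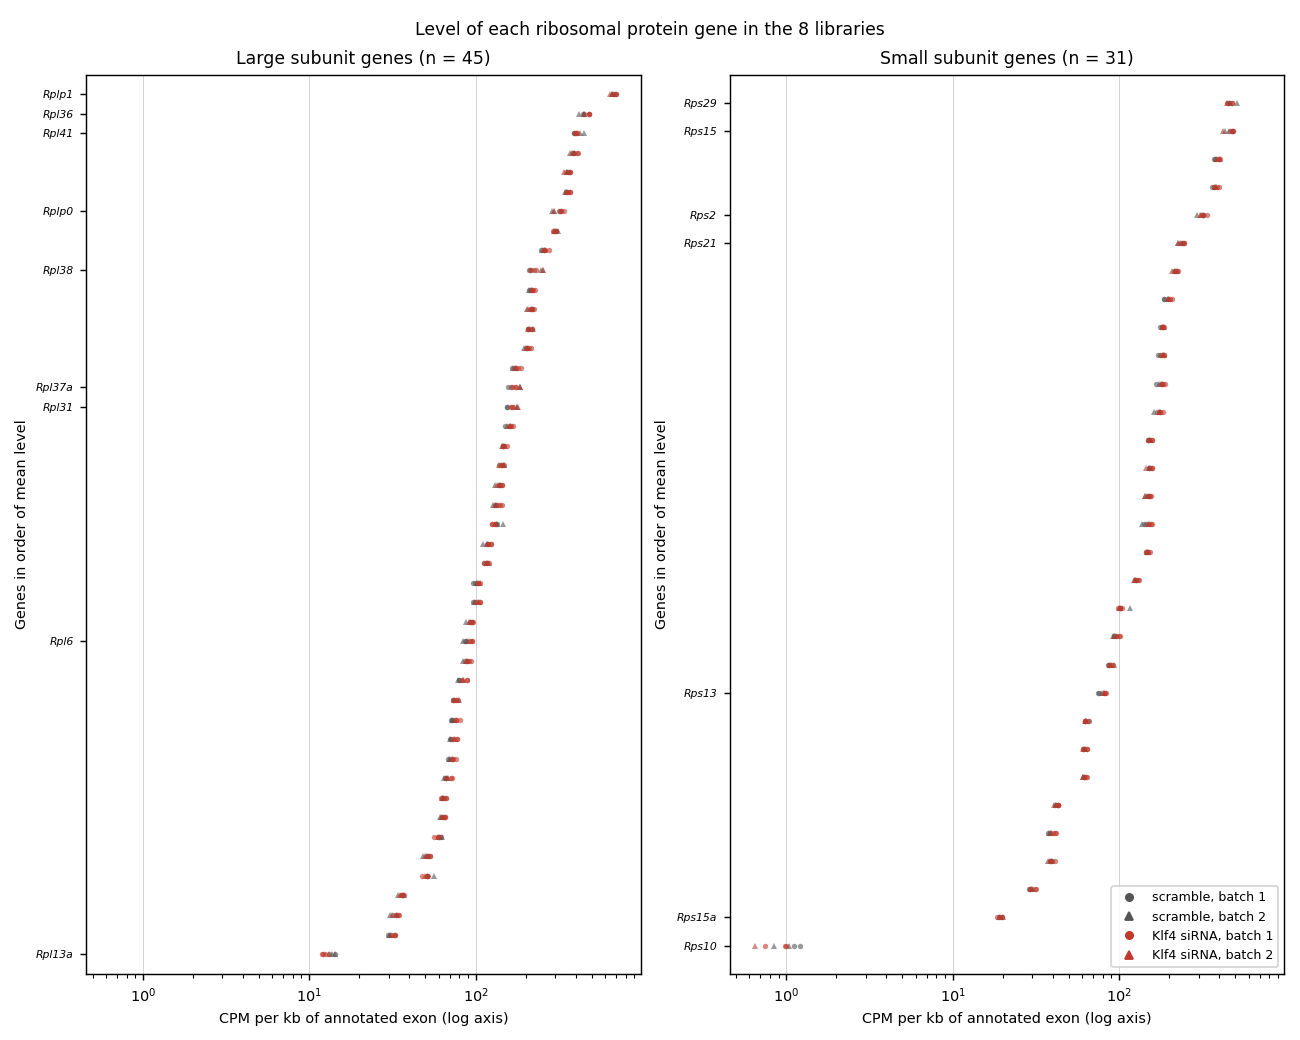
Level of each of the 76 coding members in CPM per kb of annotated exon (log axis), with 1 point per library, grey for scramble, red for Klf4 siRNA, circles for batch 1 and triangles for batch 2. Names are given for the highest and lowest members and for those called between treatments or batches. The libraries of a member lie close together beside the distance between members, from Rps10 at 0.947 to Rplp1 at 672 CPM per kb.

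The low level of Rps10, Rpl13a and Rpl24 went together with other annotations on the same bases. Of the coding bases of Rps10, 80.1% lie in same-strand exons of the read-through annotation RPS10-NUDT3, and of those of Rpl13a 90.3% lie in exons of other annotations, Gm45713 among them. These were the only 2 of 76 coding members with over 50% of coding bases shared in that way. Rpl24, left out for its low level, overlaps Gm28037. The annotations RPS10-NUDT3, Gm45713 and Gm28037 had 0 counts in all 8 libraries. Rps10 had 143, 131, 155 and 113 counts in scramble libraries 1 to 4 and 114, 131, 79 and 91 in Klf4 siRNA libraries 1 to 4, whereas the rows named as its pseudogenes held 398 to 636 counts per library together. How the authors assigned reads that fit more than 1 annotation or place is not given in the sources used here, and values of these genes are uncertain for that reason. Over all members, rows named as their pseudogenes (299 rows) held 0.0448 to 0.0508% of all counts.

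As a group the members differed little between the treatments. They took 1.97, 1.98, 1.93 and 1.91% of all counts in scramble libraries 1 to 4 and 1.97, 2.06, 1.93 and 2.03% in Klf4 siRNA libraries 1 to 4. The shares of the groups overlapped. The widest 95% binomial interval of a library, exact Clopper-Pearson and covering counting error only, ran from 1.97 to 1.98% (scramble library 2). In bulk RNA, a change in how many cells carry a message and a change in its amount per cell cannot be told apart. In the fit over 16333 genes, 4 of 78 members (5.13%) passed an adjusted p of 0.05 between treatments, 2 higher (Rpl6 and Rps13) and 2 lower (Rpl13a and Rps10). Over all tested genes 11.7% passed, 4.88% higher and 6.81% lower, so that the members' share was below the background in this fit. The gap was wider among abundant genes, with 2 of 73 members (2.74%) and 21.5% of the 4907 genes with a mean of at least 50 CPM.

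The changes were small, and most were closely measured. The estimated change of 76 of 78 members (97.4%) was within 0.1 of 0 on the log2 scale, against 59.6% of all tested genes. For 74 members the whole 95% interval lay within 0.2 of 0, and the exceptions were Rps10, Rpl13a and the pseudogenes Rpl6l and Rpl32l. The median absolute change was 0.033 over the members, 0.077 over all tested genes and 0.052 over genes of at least 50 CPM. The residual SD between libraries had a median of 0.039 over the members and 0.040 over genes of at least 50 CPM, so the spread between libraries was similar. Fold changes ran from 0.753 (Rps10) to 1.07 (Rpl6).

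**Figure D2:**
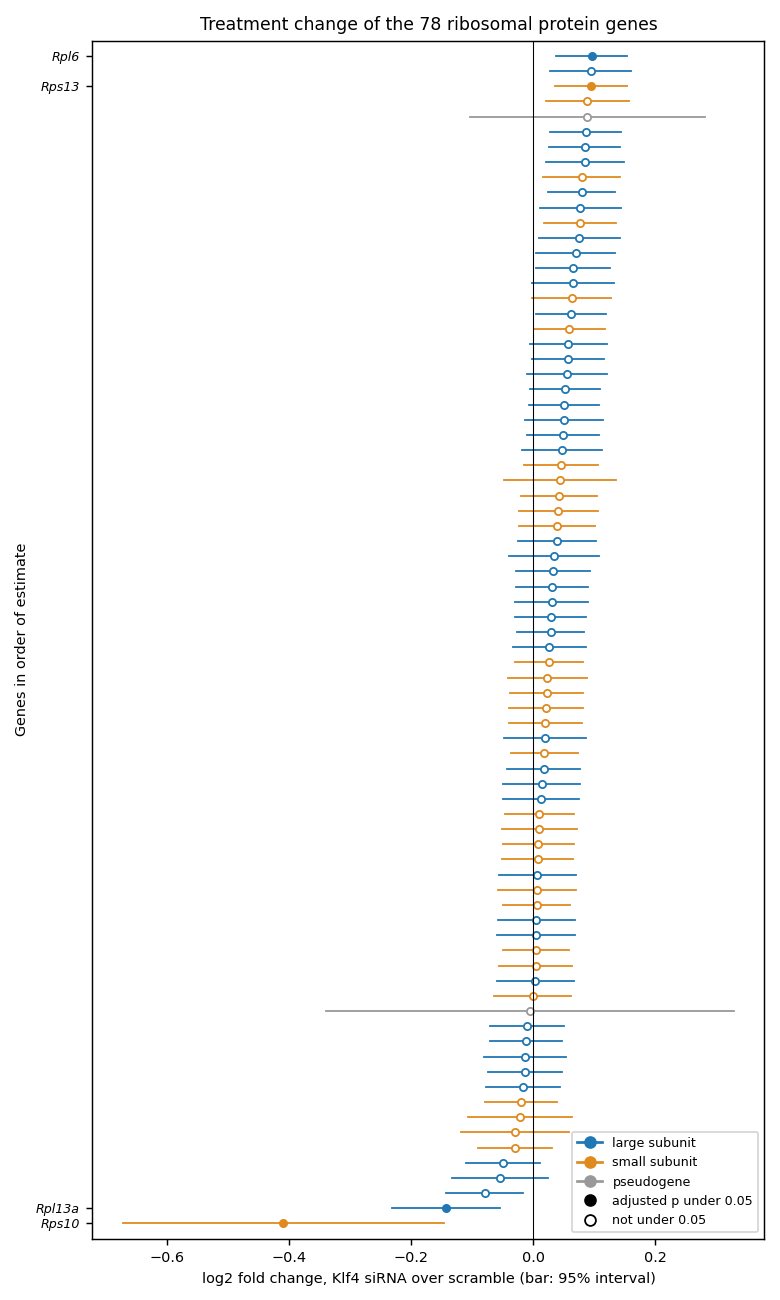
Estimated log2 fold change (Klf4 siRNA over scramble, batch in the model) of the 78 members with its 95% interval, blue for the large subunit, orange for the small subunit and grey for pseudogenes, filled and named where the adjusted p was under 0.05. Most intervals are narrow, centred slightly to the right of 0 and include it, and the interval of Rps10 is wide.

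Small as they were, the estimates leaned in 1 direction. The estimate was above 0 for 62 of 78 members (79.5%) and for 50% of all tested genes, and the median log2 change was 0.027 over the members and 4.3e-05 over all genes. Of genes of at least 50 CPM, the level of most members, 55% were above 0, with a median of 0.0091. At an unadjusted p under 0.05, 19 members passed (24.4%, against 23.9% of all genes), 16 above 0 and 3 below. Of all 16333 tested genes 1838 passed above 0 and 2070 below. Among genes of at least 50 CPM, 17 of 73 members passed, beside 37.9% of all 4907 such genes. Both subunits leaned this way, with 36 of 45 large subunit and 25 of 31 small subunit genes above 0.

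Rpl6, a protein of the large subunit's surface (chr5:121204481-121209241, forward strand), was at 273, 277, 264 and 279.7 CPM in scramble libraries 1 to 4 and at 291, 297, 287 and 299 CPM in Klf4 siRNA libraries 1 to 4. Every Klf4 siRNA library was above every scramble library. Means were 273 ± 6.63 and 294 ± 5.39 CPM (SD, n = 4 each), and the log2 change was 0.096 ± 0.028 (SE; 95% interval 0.038 to 0.15; adjusted p = 0.0290, edgeR). It was 0.11 within batch 1 and 0.080 within batch 2, higher in both.

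Rps13, a small subunit protein at the face between the subunits (chr7:116331505-116334195, reverse strand), was at 201, 203, 212 and 218 CPM in scramble and 217, 222, 219 and 223 CPM in Klf4 siRNA libraries. The scramble libraries of batch 1 were the lowest, and scramble library 4 lay just above the lowest Klf4 siRNA library, so the groups overlapped slightly. The log2 change was 0.094 ± 0.028 (SE; 95% interval 0.035 to 0.15; adjusted p = 0.0341, edgeR). It was 0.13 within batch 1 and 0.029 within batch 2.

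Rpl13a, a large subunit protein that is also known to take part in silencing inflammatory messages (chr7:45125558-45128761, reverse strand), was at 30.3, 27.7, 30.2 and 29.2 CPM in scramble and 25.7, 26.4, 27.8 and 25.3 CPM in Klf4 siRNA libraries. Klf4 siRNA library 3 reached just above scramble library 2, and all other Klf4 siRNA libraries were below every scramble library. The log2 change was -0.14 ± 0.042 (SE; 95% interval -0.23 to -0.055; adjusted p = 0.0318, edgeR), with -0.17 within batch 1 and -0.097 within batch 2.

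Rps10, a protein of the small subunit's head that is marked with ubiquitin when ribosomes stall (chr17:27630418-27636669, reverse strand), was at 2.56, 2.78, 2.42 and 1.95 CPM in scramble and 2.31, 2.27, 1.5 and 1.72 CPM in Klf4 siRNA libraries. The groups overlapped, with scramble library 4 below Klf4 siRNA libraries 1 and 2. The log2 change was -0.41 ± 0.13 (SE; 95% interval -0.67 to -0.15; adjusted p = 0.0390, edgeR), with -0.35 within batch 1 and -0.52 within batch 2. When the counts of the rows named as its pseudogenes were added to it, the change was -0.084 (adjusted p = 0.483, edgeR). Both lower calls thus fell on the 2 members whose coding bases mostly lie in same-strand exons of other annotations. With exons of either strand, Rpl23a also shared 55.3% of its coding bases, and it was not called (log2 change -0.0097). The part of that sharing in the calls was not tested.

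All 4 calls depended on which libraries were used. Without scramble library 1 the count of called members was 0 (edgeR), with estimates of the same sign as before for all 4. It was 1 without scramble library 2, 1 without scramble library 3, 1 without Klf4 siRNA library 3, 2 without Klf4 siRNA library 2 and 8 (6 higher and 2 lower) without scramble library 4. In these fits, in the order given, 5.63, 6.06, 10.2, 7.44, 10.6 and 11.2% of all tested genes were called. Without Klf4 siRNA library 1 the count was 3 (beside 8.9% of all tested genes), and without library 4 it was 4 (12.1%). The member called without scramble library 3 was Rpl9, so none of the 4 calls stood in that fit. Without scramble library 4, 7.69% of the members were called higher and 2.56% lower, beside 4.77% and 6.46% of all tested genes. With an offset for gene length and GC content 10 members were called, all higher. That is 12.8% of the members, beside 5.57% of all tested genes called higher and 7.02% called lower, so in that fit the members' share was not below the background. With the batch term left out 0 members and 2.5% of all tested genes were called.

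**Figure D3:**
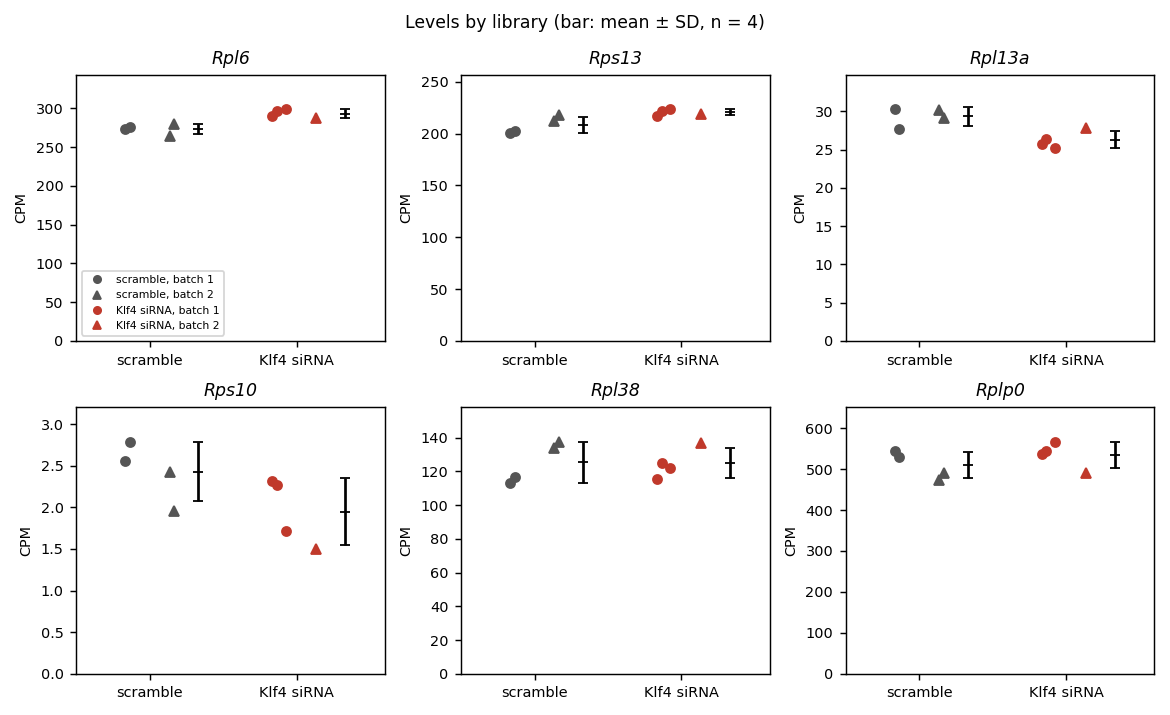
CPM by library for the 4 members called between treatments and for Rpl38 and Rplp0, called between batches, with the mean and SD of each group of 4 (axes start at 0). Rpl6, Rps13 and Rpl13a shift by a small part of their level, and for Rpl38 and Rplp0 the triangles of batch 2 stand apart from the circles of batch 1 in both treatments.

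By position alone, 5 members were higher in every Klf4 siRNA library than in every scramble library (6.41%), and 1 was lower throughout (1.28%). Over all tested genes these shares were 4.97% and 5.55%. The 5 were Rpl6, Rpl34, Rpl10a, Rpl10 and Rpl4, all of the large subunit. Rpl10, which completes the site where peptide bonds are made, was at 197, 204, 209 and 209 CPM in scramble and 211, 212, 218 and 217 CPM in Klf4 siRNA libraries (log2 change 0.079 ± 0.026; adjusted p = 0.0553, edgeR). Rpl4, which lines the exit tunnel, had the smallest change of the 5, 0.052 ± 0.028 (adjusted p = 0.263, edgeR). The member lower throughout was Rpl35, at the rim of the exit tunnel, with 166, 164, 166 and 181 CPM in scramble and 156, 162, 161 and 156 CPM in Klf4 siRNA libraries (log2 change -0.080 ± 0.030; adjusted p = 0.0972, edgeR). Scramble library 4 was well above the other scramble libraries. Exons of Wdr38 on the opposite strand overlap Rpl35, and whether the counting used strand is not given in the sources used here.

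The lean upward was seen within batch 1 and not within batch 2. Within batch 1 the median change of the members was 0.048 and 70 of 78 were above 0. Within batch 2, which has 1 Klf4 siRNA library, the median was -0.0083 and 33 of 78 were above 0, with 24 of 45 large subunit and 9 of 31 small subunit genes. The change had the same direction in both batches for 41 of 78 members (52.6%) and for 64.8% of all tested genes. In the fit with an interaction of batch and treatment, 0 members and 0 genes passed an adjusted p of 0.05 (edgeR). At an unadjusted p under 0.05 there were 4 members (Rps29, Rpl41, Rpl30 and Rpl17; 5.13%) and 3.31% of all genes, so a difference between the batches was not shown for any member.

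Within batch 1 the lean was largest in Klf4 siRNA libraries 2 and 4. Against the scramble libraries of batch 1, Klf4 siRNA library 2 was above both for 71 of 78 members (91.0%) and Klf4 siRNA library 4 for 68 (87.2%). The 3 Klf4 siRNA libraries of batch 1 share these controls. Over all tested genes these shares were 38.5% in each of the 2 libraries, and over genes of at least 50 CPM 48.6% and 50.1%. Klf4 siRNA library 1 was above both for 38 members (48.7%), beside 38.4% of all tested genes and 43.7% of those of at least 50 CPM. Klf4 siRNA library 3, set against the scramble libraries of batch 2, was above both for 14 members (17.9%, beside 35.1% of all tested genes) and below both for 27 (34.6%, beside 36.6%).

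This shift was small. Relative to the mean of the batch 1 scramble libraries, the median member stood 0.012 higher on the log2 scale in Klf4 siRNA library 1, 0.063 in library 2 and 0.078 in library 4, and in library 3 it stood 0.0084 below its own controls. Within the treatments, the median deviation of the members from each gene's mean of 8 libraries was -0.015, -0.032, -0.018 and 0.0043 in scramble libraries 1 to 4 and -0.014, 0.042, -0.021 and 0.052 in Klf4 siRNA libraries 1 to 4. Leaving out Klf4 siRNA library 2 or 4 put the median change at 0.024 or 0.020, with 55 of 78 members above 0 each time. Without Klf4 siRNA library 3 it was 0.049 with 70 above 0, and without scramble library 2 it was 0.019 with 54. Other genes of translation were set against the same controls. In Klf4 siRNA libraries 1, 2 and 4 in turn this held for 6, 11 and 12 of 14 other TOP messages, for 28, 49 and 50 of 80 mitochondrial ribosomal protein genes, and for 21, 21 and 22 of 32 ribosome biogenesis genes. In library 1 the mitochondrial share (35.0%) was below that of all tested genes and the TOP share (42.9%) near it. The biogenesis genes were thus above both controls as often in library 1 as in library 2.

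**Figure D4:**
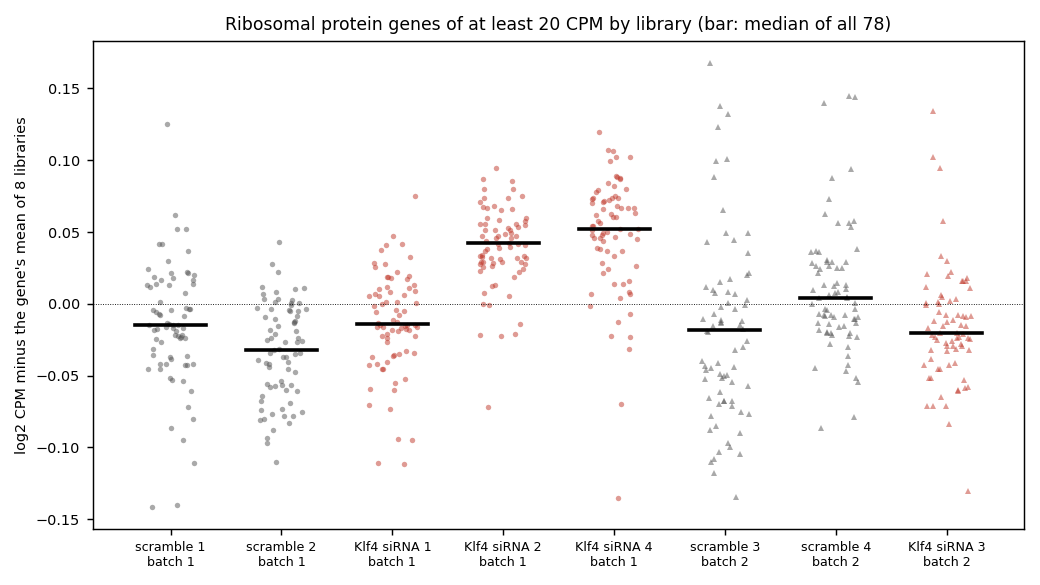
Deviation of each member of at least 20 CPM from its mean of the 8 libraries (log2 CPM), by library in the order of the batches, with bars for the median over all 78 members. The clouds of Klf4 siRNA libraries 2 and 4 sit above 0 with medians of 0.042 and 0.052, whereas Klf4 siRNA libraries 1 and 3 lie among the scramble libraries.

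The proteins that bind the 5S rRNA, the stalk and the exit tunnel were then taken as groups by role, and no member of these groups was called between treatments. Rpl5 and Rpl11, which bind the 5S rRNA and, when free, the p53 regulator Mdm2, both had positive estimates that missed the threshold (0.077 ± 0.032, adjusted p = 0.135, and 0.070 ± 0.031, adjusted p = 0.169, edgeR). Rpl5 was at 279, 275, 275 and 294 CPM in scramble and 285, 304, 291 and 305 CPM in Klf4 siRNA libraries, and scramble library 4 lay among the latter. The stalk genes Rplp0, Rplp1, Rplp2 and Rpl12 had 0 calls among 4 (edgeR; 0 at an unadjusted p under 0.05), with changes from -0.016 to 0.057. The exit tunnel genes had 0 calls among 9 (3 unadjusted), from -0.080 (Rpl35) to 0.076 (Rpl26). Over all tested genes 11.7% were called and 23.9% passed unadjusted.

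Among members also known for work beside the ribosome, Rpsa, described as a laminin receptor, was at 463, 445, 435 and 478 CPM in scramble and 478, 492, 472 and 499.8 CPM in Klf4 siRNA libraries, a change of 0.089 ± 0.033 (adjusted p = 0.0904, edgeR). Scramble library 4 was the only scramble library above the lowest Klf4 siRNA library. Rps6, the target of S6 kinase in mTOR signalling, had an estimate of 0.041 ± 0.031 (adjusted p = 0.474, edgeR), and Rps27a, made as a fusion with ubiquitin, one of 0.0083 ± 0.028 (adjusted p = 0.907). Neither was larger than the spread between libraries. Of the 18 genes listed for the human disease Diamond-Blackfan anaemia, 1 was called, Rps10 (5.56%, beside 6.81% of all tested genes called lower).

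Paralogues were at low levels or at 0 where they are known from other tissues. Rpl39l and Rpl10l, known from testis, had 0 counts in all libraries (up to 0.0653 CPM in the shallowest), and Rpl3l, known from muscle, had 5 to 13 counts per library. Rps27l, a paralogue of Rps27 that p53 can induce, was at 23.9, 23.5, 24.7 and 24.3 CPM in scramble and 23.9, 25.9, 24.1 and 25.6 CPM in Klf4 siRNA libraries, with no call (adjusted p = 0.616, edgeR). Rpl22l1, the paralogue of Rpl22, was at 17.9, 15.3, 15.3 and 14.3 and 17.7, 16.3, 15.9 and 19.6 CPM, and the groups overlapped (log2 change 0.10 ± 0.064; adjusted p = 0.360, edgeR).

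More members were called between the batches than between the treatments. Between batch 2 and batch 1, with treatment in the model, 9 of 78 members passed an adjusted p of 0.05 (11.5%), 4 higher in batch 2 and 5 lower. Over all tested genes 32.7% passed, 16.8% higher and 15.9% lower, so the members were again below the background. Among genes of at least 50 CPM it was 8 of 73 members and 41.6% of all. The median absolute batch difference was 0.034 over the members and 0.12 over all tested genes.

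Higher in batch 2 were Rpl38, Rpl31, Rpl37a and Rpl41, all of the large subunit. Rpl38, known for its part in translating Hox messages, was at 113, 117, 116, 125 and 122 CPM in the batch 1 libraries (scramble 1 and 2, Klf4 siRNA 1, 2 and 4) and at 134, 137 and 137 CPM in those of batch 2 (scramble 3 and 4, Klf4 siRNA 3). The batches did not overlap, and the log2 difference was 0.21 ± 0.032 (SE; adjusted p = 2.18e-05, edgeR). Rpl31, at the tunnel exit, was at 257, 257, 269, 273 and 277 CPM in batch 1 and 295, 296 and 297 CPM in batch 2, again without overlap (log2 difference 0.17 ± 0.028; adjusted p = 8.90e-05, edgeR). Rpl37a, a zinc-binding protein, differed by 0.17 ± 0.031 (adjusted p = 3.12e-04), and Rpl41, a very short protein, by 0.10 ± 0.033 (adjusted p = 0.0238, edgeR).

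Lower in batch 2 were Rps10, Rplp0, Rps15, Rps2 and Rps21. Rplp0, the base of the stalk and a common reference gene in quantitative PCR, was at 544, 529, 536, 543 and 566 CPM in batch 1 and 474, 491 and 491 CPM in batch 2. All 3 batch 2 libraries were below all 5 of batch 1, with a log2 difference of -0.15 ± 0.029 (adjusted p = 3.55e-04, edgeR). Rps15 was at 301, 299.6, 293, 303 and 305 CPM in batch 1 and 274, 288 and 266 CPM in batch 2, without overlap, and its difference was -0.13 ± 0.030 (adjusted p = 0.00201, edgeR). Rps2, at the entry of the mRNA channel, and Rps21 differed by -0.085 (adjusted p = 0.0472) and -0.079 (adjusted p = 0.0292, edgeR). Rps10 differed by -0.36 ± 0.13 (adjusted p = 0.0412, edgeR), the largest batch difference of a member, in the coding member with the lowest counts. This call was lost in 6 of the 8 fits that left out 1 library (all but scramble 3 and Klf4 siRNA 4) and with DESeq2 or limma-voom. In such fits the batch call of Rps2 was lost in 5 (scramble 1, 2 or 3, Klf4 siRNA 2 or 3), that of Rps21 in 4 (scramble 1, 2 or 3, Klf4 siRNA 3), that of Rpl41 in 3 (scramble 1, 2 or 4) and that of Rps15 in 1 (Klf4 siRNA 3). Scaled by library size alone 21 members were called between batches (26.9%, beside 33.2% of all tested genes), 3 higher and 18 lower. Between 5 (without scramble 1, scramble 2 or Klf4 siRNA 3) and 13 (without scramble 4) were called with 1 library left out, 6.41 to 16.7% of the members beside 23.2 to 37.2% of all tested genes.

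**Figure D5:**
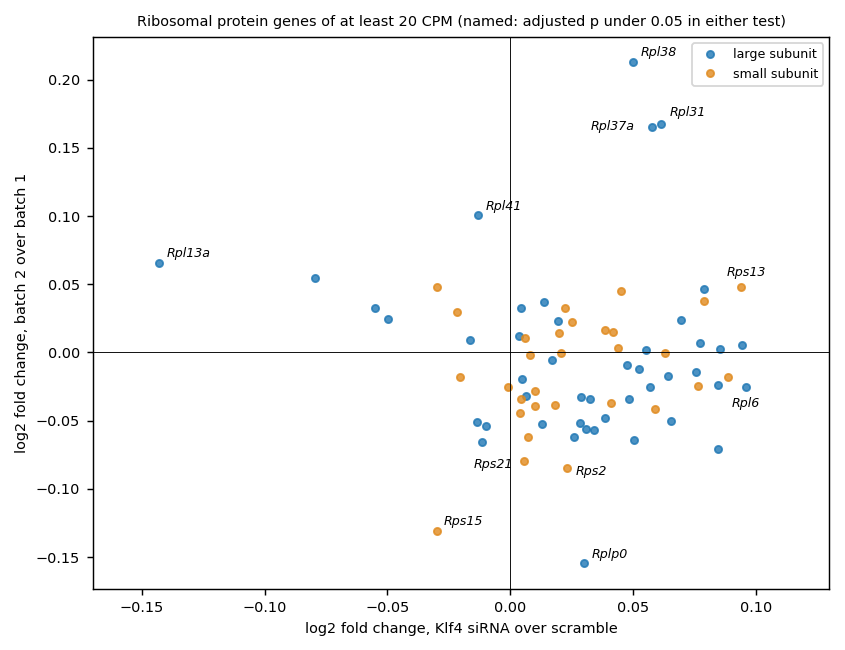
Log2 treatment change (horizontal) against log2 batch difference (vertical) of the 75 members of at least 20 CPM, blue for the large and orange for the small subunit, with names where either adjusted p was under 0.05. Batch differences reach from -0.15 (Rplp0) to 0.21 (Rpl38), and treatment changes lie between -0.14 (Rpl13a) and 0.096 (Rpl6).

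Of 32 ribosome biogenesis genes 5 rose after Klf4 siRNA and 0 fell, and 24 had estimates above 0. The share that rose, 15.6%, stood beside 4.88% of all tested genes and 10% of genes of at least 50 CPM, and the median level of the list was 86.7 CPM. Wdr12, which acts with Pes1 and Bop1 in large subunit assembly, was at 97.7, 99.97, 100.4 and 98.5 CPM in scramble and 111, 112, 112 and 104 CPM in Klf4 siRNA libraries, without overlap (log2 change 0.15 ± 0.030; adjusted p = 0.00259, edgeR). Eif6, which keeps new large subunits from joining small ones, changed by 0.13 ± 0.032 (adjusted p = 0.0122), and Riok1, a kinase of late small subunit maturation, by 0.13 ± 0.033 (adjusted p = 0.0128, edgeR). Groups did not overlap for either. Heatr3, which helps to import Rpl5 into the nucleus, changed by 0.12 ± 0.028 (adjusted p = 0.00881), and Nop2, an rRNA methyltransferase, by 0.093 ± 0.028 (adjusted p = 0.0330, edgeR). The calls of Eif6 and Riok1 were lost without scramble library 1 or 2 (adjusted p between 0.0746 and 0.113 in these 4 fits, edgeR), and that of Heatr3 without Klf4 siRNA library 3 (adjusted p = 0.0930). The call of Nop2 was lost in 5 of the 8 fits that left out 1 library (scramble 1, 2 or 3, Klf4 siRNA 1 or 2), with adjusted p up to 0.214.

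Larp1, which binds the TOP start and represses these messages when mTOR is inactive, was lower after Klf4 siRNA. It was at 230.1, 228, 233 and 234 CPM in scramble and 214, 209.8, 215 and 215 CPM in Klf4 siRNA libraries, with no overlap and the same direction in both batches (-0.10 and -0.12). Its log2 change was -0.11 ± 0.026 (adjusted p = 0.00711, edgeR), and the call was lost without scramble library 1 (adjusted p = 0.0585) or Klf4 siRNA library 3 (adjusted p = 0.0724). It was the 1 called of 13 growth control genes tested (7.69%, beside 6.81% of all tested genes called lower), and Mtor had an estimate of 0.037 ± 0.029 (adjusted p = 0.484, edgeR). Myc was at 2.34 to 3.67 CPM with no call (log2 change -0.27 ± 0.11; adjusted p = 0.136, edgeR).

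Other messages with a TOP start and the ribosome of mitochondria were tested in the same fit, in which 4.88% of all genes were called higher and 6.81% lower. Of 14 other TOP messages 1 rose (7.14%), Eef1g, a subunit of elongation factor 1 (log2 change 0.092 ± 0.029; adjusted p = 0.0439, edgeR), and 11 were above 0. Its call was lost in 6 of the 8 fits that left out 1 library, with adjusted p up to 0.209. The elongation factor genes Eef1a1 and Eef2 had estimates of -0.034 and 0.022, with no call. Of 80 mitochondrial ribosomal protein genes tested, 3 rose and 2 fell (6.25%). Mrpl19 rose by 0.15 ± 0.031 and Mrps10 by 0.15 ± 0.032 (adjusted p = 0.00245 and 0.00421, edgeR), and the third to rise was Mrps18b (adjusted p = 0.0211, edgeR; up to 0.152 and lost without scramble library 1, 2 or 3 or Klf4 siRNA library 3), whereas Mrps35 changed by -0.16 ± 0.031 and Mrps24 by -0.19 ± 0.040 (adjusted p = 0.00127 and 0.00338, edgeR). Of 9 snoRNA host genes, which carry small RNAs that guide rRNA modification in their introns, 0 were called at the adjusted p and 2 passed an unadjusted p of 0.05 (edgeR). Rps3a1, a small subunit gene outside the symbol rule, had an estimate of 0.056 ± 0.033 (adjusted p = 0.322, edgeR), within the range of the members.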

How the data were processed

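The authors deposited a table of raw counts, 1 row per gene and 1 column per library (8 libraries). The submitters' processing notes name FastQC, STAR, featureCounts, DESeq2 and mm10, with no versions, and the design text names edgeR with batch correction. Strand use and the treatment of reads that fit several places are not given in the sources used here, and counts may include PCR duplicates. All 55536 gene rows matched GENCODE mouse release 21 (GRCm38), which gave positions, exon lengths and overlaps.

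Genes were kept with filterByExpr on treatment (16333, all 78 members among them). Libraries were scaled with TMM (factors 0.964 to 1.02) and modelled on batch plus treatment by robust quasi-likelihood in edgeR 4.0.16 (R 4.3.3), which left 5 residual degrees of freedom. Two-sided p-values received the Benjamini-Hochberg adjustment across every tested gene, and 0.05 was the threshold. Standard errors were derived from each estimate and its F statistic. Batch and interaction were tested likewise. CPM values use the TMM-scaled totals (sums of cell type markers and limits for counts of 0 use the plain totals), changes within a batch are differences of mean log2 CPM with a prior count of 2, and comparisons of single libraries with their controls added 0.1 CPM. The analysis was checked on simulated counts with 200 changed genes. The changes set there were larger than those of most members, so the check does not cover changes of their size.

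The members and lists were chosen with earlier results of these data known. Named were Klf4, members past the threshold between treatments with the same direction in both batches, the 4 largest rises and falls between batches, the 3 highest and 3 lowest levels per length, fixed members and paralogues, and at most 4 called genes from each other list. Other named genes, among them Rps21, Rpl34, Rpl10a, Rpl4, Rpl35, Rpl12, Rpl26, Rps28, Rps29, Rpl30, Rpl17, Rps15a and Nop2, were chosen after their values were seen, as were the motifs other than CCACCC and the pyrimidine run. No correction was made for other cell types. Results of some genes are not reported here. Alternatives to the model, the scaling, the test (DESeq2 1.42.0 and limma-voom 3.58.1) and the filter, and fits without each library, were computed.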

Additional observations from a re-analysis of the deposited data

Results flagged for a closer look

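In groups of 4 libraries, a library was marked when its gap to the nearest other library took an unusually large part of the group's range (Dixon's ratio). Of 120 groups examined, those of the genes named in the text and the members' share of counts, 10 were marked, where chance would mark about 1 in 20, or 6. Scramble library 3 stood high for Rpl39, at 80.6 CPM against 72.9 to 73.3 in the other scramble libraries (ratio 0.948), and for Rps27, at 120.5 CPM against 104 to 106 (ratio 0.860). Klf4 siRNA library 3, the only one of its treatment in batch 2, stood high for Gcg at 7640.2 CPM against 1065 to 1231 (ratio 0.9747) and low for Heatr3 at 99.2 CPM against 107 to 108 (ratio 0.834). Klf4 siRNA library 2 stood low for Larp1 at 209.8 CPM against 214 to 215 (ratio 0.844), and Klf4 siRNA library 4 low for Wdr12 at 104 CPM against 111 to 112 (ratio 0.859) and high for Rpl10a at 195 CPM against 184 to 185 (ratio 0.911). Scramble library 4 stood low for Mtor at 189 CPM against 204 to 206 (ratio 0.926) and high for Rpl35 at 181 CPM against 164 to 166 (ratio 0.888). Klf4 siRNA library 3 was also low for Rpl36, at 171 CPM against 183 to 185 (ratio 0.892).

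For 4 members named in the text and for Eef2 every Klf4 siRNA library lay above the scramble libraries of its batch in batch 1 and below them in batch 2. The change in batch 2 minus that in batch 1 was -0.14 on the log2 scale for Rpl17 (unadjusted p = 0.0214), -0.13 for Rpl41 (unadjusted p = 0.0462), -0.13 for Rpl30 (unadjusted p = 0.0469), -0.11 for Rps27l (unadjusted p = 0.248) and -0.061 for Eef2 (unadjusted p = 0.336). These come from the interaction term of edgeR, and none of the 5 passed after adjustment over all genes. Over all 78 members 8 had this pattern (10.3%), beside 2.53% of all tested genes.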

How the results depend on the processing

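The median log2 change of the members kept its direction under all 21 alternatives, from 0.019 to 0.049, with 0.019 and 0.049 also the lowest and highest values with 1 library left out. The number of members called between treatments, 4, was less stable. It was 0 with no batch term (2.5% of all genes called), 2 with Klf4 siRNA replicate 4 placed in batch 2 (8.14%), 1 in batch 1 alone (7.44%), 1 with library size alone (8.91%), 2 with no filter on low counts (6.27%), 6 of 75 at a mean of at least 5 CPM (19.4%), 10 with a length and GC offset (12.6%), and 0 to 8 with 1 library left out (5.63 to 12.1%). Of 21 alternatives, Rpl6 lost its call in 8, Rps13 in 10, Rpl13a in 9 and Rps10 in 13 of the 20 that tested it, and none of the 4 turned in direction. Members called between batches, 9 (11.5%, beside 32.7% of all tested genes), numbered 4 with Klf4 siRNA replicate 4 placed in batch 2 (5.13%, beside 17.6%). They numbered 21 with library size alone (26.9%, beside 33.2%). With 1 library left out they numbered 5 to 13 (6.41 to 16.7%, beside 23.2 to 37.2%). Klf4 was -1.39 (adjusted p = 0.104, edgeR) in batch 1 alone and ranged from -1.46 to -1.24 with 1 library left out. Sign changes of genes that passed in neither fit were not counted. The cause of these differences was not tested, but batch 1 alone and the leave-one-out fits hold fewer libraries.

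Treatments share replicate numbers in the labels. Between libraries of the same number, departures from the treatment mean had correlations of 0.49, 0.42, 0.72 and -0.34. After removal of batch these were -0.00053, -0.040, -0.30 and 0.12. With so few libraries per batch the fit ties these values to each other, so whether the numbers mark pairs cannot be decided from them. With the replicate block used instead of batch 2 members were called (Rpl36 and Rpl6), and 1220 genes in all against 1909.

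Batch 2 holds 1 Klf4 siRNA library, so its within-batch changes have no replicate check. Depth did not limit most members, but Rps10, Rpl32l and Rpl6l rest on few counts.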
